A study of Mus musculus with 6 samples.

Results

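The levels of 9 complement genes, C1ra, C1s1, C2, C3, C4b, C7, Cfb, Serping1 and C3ar1, were described among the 55450 genes of a single-cell RNA data set of the mouse aorta. They were taken by symbol as components or regulators of the cascade, and all 9 were present. The study had 3 samples of genotype Best3SMKO, a name that with the series title is read here as deletion of Best3 in smooth muscle, and 3 of genotype Best3FL/FL, the floxed allele. Droplet libraries (10x Genomics) were made from dissociated aortic tissue, and each unique molecular identifier (UMI) stands for 1 captured transcript. The labels give no age, sex, Cre driver or number of pooled animals. Best3 encodes a bestrophin, a family of chloride channels.

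Complement is a cascade of plasma proteins that marks and lyses cells and calls in leukocytes. Its classical arm starts with C1, whose serine protease C1r activates the serine protease C1s. C1s then cuts C4 and C2, and the alternative arm uses factor B. Both arms meet at C3, and the terminal components, C7 among them, build the membrane attack pore. C1 inhibitor, the product of Serping1, blocks C1r and C1s, and C3ar1 encodes the receptor for the C3a fragment. The liver makes most circulating complement, while fibroblasts and macrophages of many tissues also transcribe these genes.

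The deposited matrix pooled the samples. Its barcodes fell into 6 libraries, numbered 1 to 6 here, that could be tied to no genotype, so no value below compares Best3SMKO with Best3FL/FL and no p-value is given. Best3 itself gave 26 UMIs in 26 barcodes of 60871. The libraries held 7475 to 16269 barcodes and 51813179 to 96144873 UMIs, with a median of 4708 to 6290 UMIs per barcode. Of 60454 distinct barcode sequences, 414 occurred in 2 or more libraries. After limits on quality and removal of called doublets, 50769 cells were kept and sorted by marker genes into 9 classes, each called by a cell type with the ending -like. The classes held 16069 fibroblast-like, 14523 smooth muscle-like, 8392 endothelial-like, 3279 macrophage-like, 1745 Schwann-like, 1534 lymphatic endothelial-like, 913 T cell-like, 500 B cell-like and 334 epithelial-like cells, and 3480 cells in 3 clusters stayed unnamed. Library 5 stood apart in makeup: it held 281 of the 334 epithelial-like cells, 431 of the 500 B cell-like cells and 854 of the 967 cells of the unnamed cluster 13. The leading genes of the epithelial-like class (Scgb1a1, Bpifa1, Sftpc) are genes of the airway and lung, not of the vessel wall.

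Levels are given as CPM, a gene's UMIs scaled to a fixed total, from the UMIs of all cells of a group summed, and the intervals beside them are exact 95% Poisson limits, which cover counting error only. They are not divided by gene length, so levels of different genes are not compared. In the GRCm38 annotation the genes lie on 4 chromosomes. C2 (chr17:34862604-34898265) and Cfb (chr17:34856374-34862518) are neighbours on the minus strand, 86 bases apart, and reads near their border may be split between them. C4b (chr17:34728380-34743882) and C3 (chr17:57203970-57228136) lie on the same chromosome, also on the minus strand. C1ra (chr6:124512405-124523443, plus strand) and C1s1 (chr6:124530345-124542359, minus strand) lie 6902 bases apart and point toward each other, and C3ar1 is at chr6:122847138-122856161 on the minus strand. C7 is at chr15:4988762-5063740 and Serping1 at chr2:84765387-84775444, both on the minus strand. All 9 are annotated as protein-coding. C1ra, C1s1 and C4b have near-identical copies, C1rb, C1s2 and C4a, and the split of reads within each pair is uncertain. Those copies reached at most 0.282, 0.372 and 0.994 CPM in any named class.

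RefSeq promoter windows (GRCm38.p6, 250 bases before to 50 after the start of transcription) were found for 5 of the 9 genes. Shown are those of C3, C7 and C1ra, which shared a fibroblast-like pattern, and of C3ar1, which did not. Capitals mark matches, on either strand, to a C/EBP core (TTGCNNAA), a GAS element bound by STAT factors (TTCNNNGAA) or a TATA box (TATAAA). The windows lie at chr17:57228087-57228386 (C3, minus strand), chr15:5063724-5064023 (C7, minus strand), chr6:124512371-124512670 (C1ra, plus strand) and chr6:122856108-122856407 (C3ar1, minus strand), each written 5′ to 3′ on the strand of its gene.
C3: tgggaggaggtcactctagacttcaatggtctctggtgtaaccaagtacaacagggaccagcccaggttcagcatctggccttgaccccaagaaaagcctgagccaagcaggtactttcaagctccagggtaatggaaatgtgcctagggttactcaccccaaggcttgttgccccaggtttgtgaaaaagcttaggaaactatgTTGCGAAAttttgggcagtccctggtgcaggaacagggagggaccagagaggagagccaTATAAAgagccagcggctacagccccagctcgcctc
C7: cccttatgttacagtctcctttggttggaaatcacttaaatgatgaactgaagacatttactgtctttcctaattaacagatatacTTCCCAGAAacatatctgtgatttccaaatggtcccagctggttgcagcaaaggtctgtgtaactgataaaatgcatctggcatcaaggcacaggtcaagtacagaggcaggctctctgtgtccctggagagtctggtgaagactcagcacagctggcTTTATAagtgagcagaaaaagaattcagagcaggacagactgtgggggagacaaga
C1ra: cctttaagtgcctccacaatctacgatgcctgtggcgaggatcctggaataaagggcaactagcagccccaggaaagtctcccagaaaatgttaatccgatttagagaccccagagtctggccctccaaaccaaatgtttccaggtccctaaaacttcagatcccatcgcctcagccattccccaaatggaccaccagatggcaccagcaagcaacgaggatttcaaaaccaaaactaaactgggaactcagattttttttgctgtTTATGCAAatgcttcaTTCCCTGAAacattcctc
C3ar1: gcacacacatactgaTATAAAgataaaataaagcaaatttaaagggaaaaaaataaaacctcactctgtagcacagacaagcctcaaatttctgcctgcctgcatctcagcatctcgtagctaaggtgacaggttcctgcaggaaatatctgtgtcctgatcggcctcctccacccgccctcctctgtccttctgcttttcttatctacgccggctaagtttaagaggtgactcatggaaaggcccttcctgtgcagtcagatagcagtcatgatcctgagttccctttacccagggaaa
The C3 window held a C/EBP and a TATA match, the C7 window a GAS and a TATA match, the C1ra window a C/EBP and a GAS match, and the C3ar1 window a TATA match. Of 32851 mouse windows of the same length, 10.8% held the C/EBP core, 8.30% the GAS element and 13.6% the TATA box. The NF-kB element (1.47% of windows) and the interferon-stimulated response element (3.44%) were also searched, and neither occurred in the windows of these 5 genes. No motif occurred in all 3 windows of C3, C7 and C1ra, and a match of letters is not a binding site.

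Fibroblast-like cells, named by markers and not by place in the wall, held most of the transcripts of 8 of the 9 genes. Of all UMIs in kept cells they carried 96.0% for C7, 84.4% for Serping1, 83.6% for C2, 77.6% for C3, 75.1% for C1ra, 72.1% for C1s1, 70.9% for Cfb and 59.6% for C4b, while making up 31.7% of the cells. The ninth gene, C3ar1, was a macrophage gene, with 90.7% of its UMIs in macrophage-like cells. A gene was counted as placed in a class when its CPM was 4 or more times the level of each of the other classes with 200 cells or more, and the class led in every library. By that rule of size, which is not a test, 5 of the 9 genes were placed in fibroblast-like cells (C1ra, C1s1, C3, C7 and Serping1), against 1.72% of the 8828 genes that reached 10 CPM there. C3ar1 was the 1 gene placed in macrophage-like cells, where 2.81% of 8370 genes were. C2, C4b and Cfb were placed in no class. The members were chosen with earlier results of these data known. The shares over all genes, here and below, are therefore given for scale and are not independent support.

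**Figure D1:**
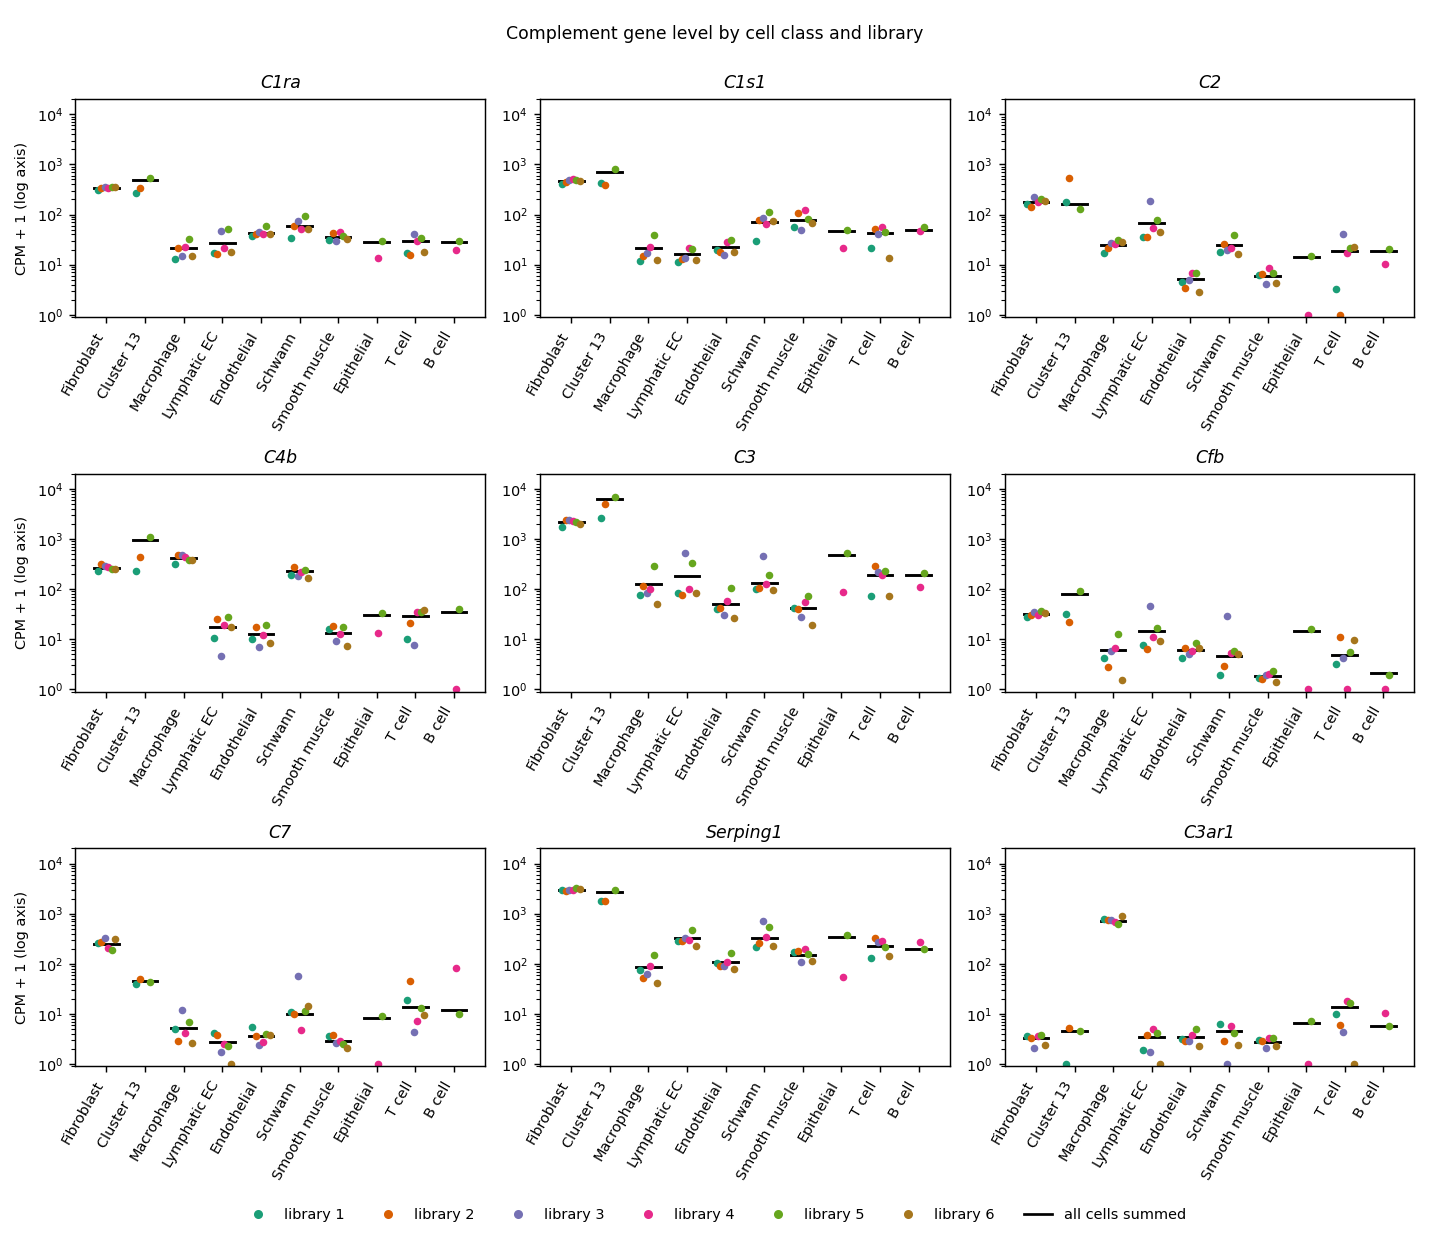
Level of each gene (CPM + 1, log axis) by cell class, with a point for each library that held at least 20 cells of the class and a bar for all cells summed. Points of fibroblast-like cells lie close together near the top for 7 genes, C4b is highest in macrophage-like cells among the named classes, and C3ar1 stands at 634 to 894 CPM in macrophage-like cells alone.

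C3, the component on which all arms of the cascade converge, had 1758, 2432, 2354, 2296, 2159 and 1986 CPM in the fibroblast-like cells of libraries 1 to 6. No other named class passed 523 CPM in any library. Summed over libraries C3 stood at 2155 CPM (95% interval 2147 to 2164) in fibroblast-like cells, against 477 CPM (455 to 500) in epithelial-like cells, the next class, a ratio of 4.52. The epithelial-like value was set by library 5, since it was 79.2 CPM without it. With called doublets kept, C3 was not placed: fibroblast-like cells had 2161 CPM, and epithelial-like cells 1450 CPM. Smooth muscle-like cells had the lowest C3 level at 41.5 CPM (40.4 to 42.5).

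Serping1 was close to universal among fibroblast-like cells. After each cell was thinned to 2000 UMIs, which left out 2033 shallower fibroblast-like cells, 96.9% of them still had a Serping1 UMI (98.2% before thinning). The share was 16.9% in T cell-like cells, a class that should lack the gene, where 225 cells were too shallow. Median depths were 6427 UMIs in fibroblast-like and 3404 UMIs in T cell-like cells. Its level was 3022, 2795, 2949, 2959, 3192 and 3041 CPM in fibroblast-like cells of libraries 1 to 6, so the highest library was 1.14 times the lowest. The next class, epithelial-like cells, had 346 CPM, a value that was 46.0 CPM without library 5.

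The C1 proteases followed C1 inhibitor. C1s1 had 405, 454, 490, 521, 493 and 464 CPM in fibroblast-like cells of libraries 1 to 6, against 48.8 to 121 CPM in smooth muscle-like cells, the next class. C1ra had 309, 339, 360, 345, 360 and 353 CPM in fibroblast-like cells, against 32.9 to 92.2 CPM in Schwann-like cells. Neither pair of ranges overlapped. Thinned shares of cells with a UMI were 57.0% for C1s1 and 48.0% for C1ra in fibroblast-like cells, against 5.81% and 3.63% in T cell-like cells.

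C7, the terminal component that anchors the attack complex in the membrane, was the gene most narrowly held by fibroblast-like cells. It had 253, 276, 320, 209, 187 and 307 CPM there in libraries 1 to 6, against 12.7 CPM (9.25 to 17.0) in T cell-like cells, the next class, a ratio of 19.5. No library of another named class passed 82.6 CPM. Smooth muscle-like cells had 1.88 CPM and endothelial-like cells 2.63 CPM. The thinned share with a C7 UMI was 31.8% in fibroblast-like cells and 2.03% in T cell-like cells.

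C2, the C1s substrate that supplies the protease of the classical C3 convertase, stood at 178 CPM (176 to 181) in fibroblast-like cells and 65.9 CPM (61.1 to 71.0) in lymphatic endothelial-like cells, a ratio of 2.71. Fibroblast-like cells were above every other class in each of 6 libraries, yet the lymphatic value ran from 34.3 to 182 CPM, so the ranges over libraries met. Cfb, the counterpart of C2 in the alternative arm, stood at 30.8 CPM (29.8 to 31.9) in fibroblast-like cells, against 13.9 CPM (11.7 to 16.3) in lymphatic endothelial-like cells. In 5 of 6 libraries the fibroblast-like value was the highest, and in library 3 the lymphatic one was. Only 6.03% of thinned fibroblast-like cells had a Cfb UMI, against 0.436% of T cell-like cells.

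C4b was the gene of several cell types. Macrophage-like cells had 317, 477, 478, 439, 377 and 387 CPM in libraries 1 to 6, fibroblast-like cells 229, 315, 293, 280, 250 and 256 CPM, and Schwann-like cells 190, 278, 185, 218, 240 and 163 CPM. Macrophage-like cells were the highest of the named classes in every library, by 1.54 times over fibroblast-like cells when libraries were summed, while the ranges of fibroblast-like and Schwann-like cells overlapped. Because fibroblast-like cells were more numerous, they still held 59.6% of C4b UMIs, against 15.2% in macrophage-like cells. Among thinned cells, 44.7% of macrophage-like, 22.9% of fibroblast-like and 24.2% of Schwann-like cells had a C4b UMI, against 4.22% of T cell-like cells.

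C3ar1, the receptor through which C3a acts on myeloid cells, had 781, 737, 761, 670, 634 and 894 CPM in macrophage-like cells of libraries 1 to 6. In no other named class did a library pass 17.2 CPM, and the next class, T cell-like cells, stood at 12.4 CPM (9.01 to 16.6), a ratio of 58.5. That ratio leaves out an unnamed cluster of mixed myeloid genes (1181 cells), which had 56.4 CPM. At resolution 1.0 a monocyte-like class was second, at 58.8 CPM against 724 CPM in macrophage-like cells. Of thinned macrophage-like cells 71.8% had a C3ar1 UMI, against 0.303% of smooth muscle-like cells. Fibroblast-like cells, which held most C3, had 2.30 CPM of its receptor.

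C3ar1 was not even among myeloid cells, which were clustered apart (macrophage-like cells together with the unnamed cluster of mixed myeloid genes). The subclusters named resident macrophage from Cd163, Folr2, Lyve1, F13a1 and Gas6 had 930 CPM (907 to 954, 1223 cells), 594 CPM (575 to 613, 1165 cells) and 918 CPM (871 to 967, 303 cells). A monocyte-like subcluster had 131 CPM (108 to 157, 200 cells, led by Ly6c2 and Plac8, with 7.55 and 200 CPM in its 2 libraries of at least 20 cells). Another monocyte-like subcluster had 88.3 CPM (77.5 to 100, 264 cells). It was led by Chil3 and Ear2, but also by Lyz1, Mmp12, Fn1 and Lpl, which are not on the monocyte list. Unnamed subclusters had 563 CPM (526 to 603, 236 cells, led by Mmp12, Mmp13 and Cxcl9) and 322 CPM (108 cells, led by the cycling genes Top2a and Mki67). Others without a name had 270 CPM (157 cells), 171 CPM (209 cells) and 38.7 CPM (117 cells). The 2 dendritic-like subclusters had 9.61 CPM and 6.72 CPM. In the 57 neutrophil-like cells no C3ar1 UMI was seen (exact upper bound 30.1 CPM). The first resident subcluster ranged from 854 to 1031 CPM over 6 libraries and the second from 505 to 632 CPM, so these did not overlap, and for C4b the order was the other way, at 344 CPM (227 to 417 over libraries) in the first and 539 CPM (402 to 730) in the second, with ranges that overlapped. C3ar1 itself is among the genes that lead the first subcluster, although complement genes were kept out of the genes used for clustering.

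As a rough measure of fibroblast transcripts in each class, every gene was counted per 100 UMIs of Dcn and Col1a2, a proteoglycan and a collagen that fibroblasts make. Fibroblast-like cells had 19446 CPM of Dcn and 5592 CPM of Col1a2. The balance differed in smooth muscle-like cells (221 and 915 CPM) and Schwann-like cells (1265 and 995 CPM). In such classes the divisor may hold Col1a2 of the class itself, which lowers the ratio. In T cell-like cells the ratios, summed over libraries, were 9.51 against 8.61 for C3, 1.39 against 1.37 for C1ra, 2.04 against 1.88 for C1s1 and 0.627 against 0.985 for C7. Over libraries the T cell-like ratios spread widely, from 0.524 to 1.82 for C1ra and from 0.151 to 1.57 for C7, and Cfb and C3ar1 were above the fibroblast-like ratio, at 0.195 against 0.123 and 0.613 against 0.00920. The part of free RNA was not tested. Other classes held more of some genes per Dcn and Col1a2 UMI.

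**Figure D2:**
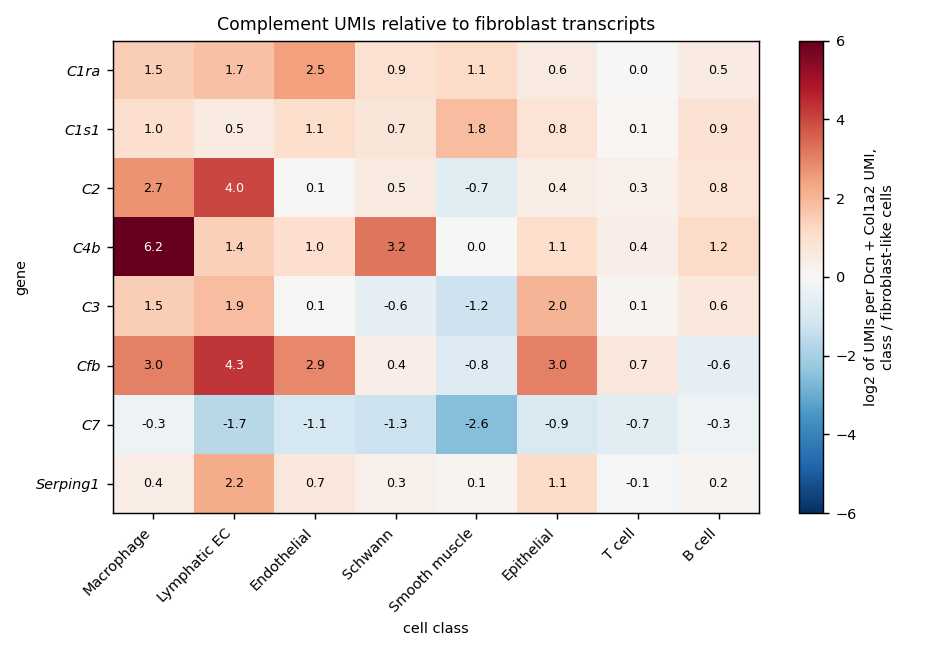
UMIs of the 8 genes other than C3ar1 per UMI of Dcn and Col1a2, in each class relative to fibroblast-like cells, as log2 (colour and numbers, 0 means the same ratio). T cell-like cells lie near 0 for C1ra, C1s1, C3 and Serping1, and the highest entries are C4b in macrophage-like cells, with 78.3 against 1.07 UMIs per 100, and Cfb and C2 in lymphatic endothelial-like cells.

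In macrophage-like cells the ratio was 78.3 for C4b, against 1.07 in fibroblast-like cells, and it was higher in all 6 libraries (40.4 to 142, against 0.922 to 1.24). Macrophage-like cells also had 23.7 C3 and 4.59 C2 UMIs per 100, against 8.61 and 0.713 in fibroblast-like cells, each higher in 6 of 6 libraries. Lymphatic endothelial-like cells had ratios of 11.5 for C2, 31.4 for C3, 2.42 for Cfb and 55.9 for Serping1, against 0.713, 8.61 and 0.123 for the first 3 and at most 12.4 in any library for Serping1 in fibroblast-like cells, again higher in 6 of 6 libraries each. Their C7 ratio was 0.311, against 0.985, and was lower in all 6. Schwann-like cells had a C4b ratio of 9.95 (2.96 to 17.4 over libraries), but their C3 ratio of 5.78 was below that of fibroblast-like cells in 6 of 6 libraries.

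Within classes, clusters differed. Among endothelial-like cells C1ra was highest in the cluster led by the arterial genes Gja5 and Bmx, with 74.5 CPM (66.5 to 82.3 over 6 libraries, 3061 cells). It had 34.0 CPM in the cluster led by the venous genes Selp and Vwf (2208 cells) and 8.15 CPM in the capillary-gene cluster led by Gpihbp1 and Cd36 (3123 cells), and the arterial-gene cluster was highest in 6 of 6 libraries. Per 100 Dcn and Col1a2 UMIs the 3 clusters had 11.8, 5.30 and 2.19 C1ra UMIs, each above the 1.37 of fibroblast-like cells. Serping1 had another order, with 185 CPM (127 to 268) in the Selp and Vwf cluster, against 86.5 CPM and 56.8 CPM in the others, and was also highest there in 6 of 6 libraries. Among Schwann-like cells C4b had 384 CPM (327 to 478 over 5 libraries) in the cluster led by Fabp7, Cdh19 and Sostdc1 (703 cells), against 47.9 CPM (24.5 to 64.5 over 6 libraries) in the cluster whose leading genes include Mbp and Mal (1042 cells).

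Smooth muscle-like cells split likewise. The main cluster of 12589 cells had 55.9 CPM of C1s1 (40.3 to 70.4 over libraries), and the smaller cluster of 1934 cells, led by Cfd, Actc1, Des and Pln, had 254 CPM (208 to 292). Per 100 Dcn and Col1a2 UMIs these were 4.82 and 27.1, against 1.88 in fibroblast-like cells. When all cells were clustered at the higher resolution of 1.0, 437 cells, 435 of them from that smaller cluster, separated as pericyte-like, with 2191 CPM of Rgs5, 265 CPM of Kcnj8 and 531 CPM of Abcc9. They also had 4509 CPM of the smooth muscle gene Myh11. Their leading genes were Cfd, Car3, Fst, Kcnk3, Actc1, Colec11, Hp, Vtn, Notch3 and Cidec. Of these, Vtn is on the pericyte marker list and Cidec on the adipocyte list, so the name is tentative. These cells had 370, 642, 482, 585, 539 and 645 CPM of C1s1 in libraries 1 to 6, against 406, 455, 490, 522, 495 and 465 CPM in fibroblast-like cells. They were higher in 4 of 6 libraries and the ranges overlapped, so C1s1 was no longer placed in fibroblast-like cells at that resolution. C1ra was not placed either, since pericyte-like cells had 114 CPM, against 343 CPM in fibroblast-like cells. Of the other genes, C3 stood at 172 CPM in pericyte-like cells, against 2160 CPM in fibroblast-like cells, C7 at 6.50 CPM against 247 CPM, C2 at 102 CPM against 178 CPM and Serping1 at 560 CPM against 3004 CPM. Pericyte-like cells were then the second highest class for Serping1. Their Dcn level, 1161 CPM against 19474 CPM, gave ratios of 29.0 for C1s1 and 29.3 for Serping1 per 100 Dcn and Col1a2 UMIs.

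Fibroblast-like cells were not uniform. They were clustered again without complement genes among the variable genes, and subclusters were named from short marker lists. A gene was called higher or lower in a subtype if its level was at least 2 times, or at most 1/2 of, that in the other fibroblast-like cells and on the same side in every library with at least 20 cells of it. The Penk/Cxcl14-like subtype (2916 cells, led by Cxcl13, Cxcl14 and Penk) held 4 of the 9 genes at higher levels and none at lower ones, against 1.73% of 9083 genes higher and 2.58% lower. C7, among those 4, was left out of the marker list of this subtype only because it is a member. Its call was therefore foreseen and is not an independent result. Subcluster 2 (2621 cells) scored best for the same list but stayed unnamed for low depth. It was counted among the other fibroblast-like cells and is described below. The Pi16/Cd248-like subtype (1466 cells, led by Pla1a, Smpd3 and Dpp4) held 2 at lower levels and none at higher ones, against 5.22% and 3.88% of 9155 genes. The Fmod/Dio2/Hhip-like subtype (5799 cells) held none in either direction, against 0.820% higher and 2.40% lower of 9027 genes. It joined a subcluster of 3773 cells, led by Pax1, Fmod, Thbs2 and Angptl7, and another of 2026 cells, led by Lamc3, Pax1 and Cdh11. The leading genes of the latter held no marker of its own list, and held Cytl1 of the Tbx20 list.

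**Figure D3:**
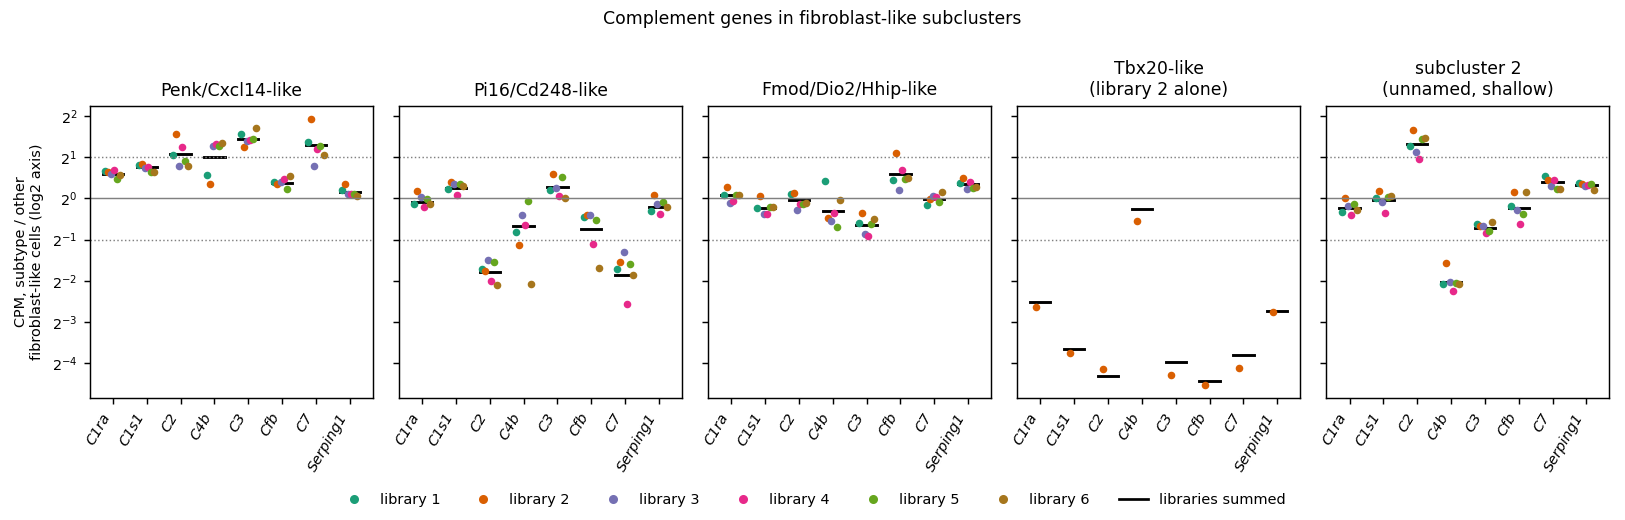
Ratio of each gene's CPM in a fibroblast-like subcluster to that in the other fibroblast-like cells (log2 axis), with a point per library and a bar for libraries summed, and dotted lines at ratios of 2 and 1/2. C3, C7, C2 and C4b lie above 1 in every library in the Penk/Cxcl14-like subtype, and C2 and C7 lie below 1/2 in every library in the Pi16/Cd248-like subtype.

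In Penk/Cxcl14-like cells C3 had 3757, 4485, 4318, 4428, 4506 and 5019 CPM in libraries 1 to 6, against 1283, 1896, 1652, 1659, 1664 and 1549 CPM in the other fibroblast-like cells. These ranges lay far apart, with a summed ratio of 2.70. C7 had 499, 661, 461, 370, 361 and 560 CPM, against 194, 175, 269, 162, 150 and 271 CPM, a ratio of 2.45. C2 had 275, 300, 316, 313, 332 and 295 CPM, against 132, 101, 183, 133, 177 and 171 CPM, a ratio of 2.09. For C7 and C2, too, every Penk/Cxcl14-like value was above every other value.

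C4b was nearest the limit, with a ratio of 2.02. It had 310, 380, 514, 522, 483 and 545 CPM in Penk/Cxcl14-like cells, against 210, 298, 214, 208, 200 and 215 CPM, and libraries 1 and 2 showed the smallest gaps. Just outside the limit were C1s1, with 697 CPM against 415 CPM and a ratio of 1.68, and C1ra, with 470 CPM against 310 CPM and a ratio of 1.51, both higher in 6 of 6 libraries. Serping1, at 3264 CPM against 2935 CPM, differed by 1.11 times. The share of thinned cells with a C3 UMI was 91.6% in Penk/Cxcl14-like cells and 67.7% over all fibroblast-like cells.

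Pi16/Cd248-like cells were lowest, relative to the other fibroblast-like cells, in C7 and C2. C7 had 85.5, 101, 140, 43.0, 65.8 and 91.1 CPM in libraries 1 to 6, against 281, 297, 343, 255, 200 and 332 CPM in the other fibroblast-like cells, a ratio of 0.277. C2 had 53.6, 45.3, 83.4, 51.8, 74.7 and 46.9 CPM, against 177, 154, 235, 208, 219 and 202 CPM, a ratio of 0.291. Neither pair of ranges overlapped. In the same cells C3 stood at 2521 CPM against 2097 CPM and C1s1 at 546 CPM against 460 CPM, each higher in 6 of 6 libraries. C4b stood at 178 CPM against 282 CPM and Cfb at 19.5 CPM against 32.6 CPM, each lower in 6 of 6 libraries but short of the limit. Serping1, at 2637 CPM against 3059 CPM, was lower in 5 of 6 libraries and C1ra, at 325 CPM against 345 CPM, in 4 of 6. The summed level of 8 dissociation-response genes (Fos, Jun, Hspa1a and others) was 9143 CPM in Pi16/Cd248-like cells, 16004 CPM in Penk/Cxcl14-like cells and 15382 CPM in Fmod/Dio2/Hhip-like cells, and its part in these differences was not tested.

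The Fmod/Dio2/Hhip-like subtype showed smaller differences. Cfb was higher in 6 of 6 libraries (38.8 CPM against 25.8 CPM), and so was Serping1 (3453 CPM against 2718 CPM, 1.27). C3 was lower in 6 of 6 (1590 CPM against 2509 CPM, 0.634).

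A subtype named from Tbx20, Gata4 and Wif1 held 193 cells, all of library 2. Its levels there were 141 CPM of C3, 37.8 CPM of C1s1, 60.6 CPM of C1ra, 9.21 CPM of C2, 17.9 CPM of C7, 1.45 CPM of Cfb and 462 CPM of Serping1, against 2742, 511, 377, 161, 311, 33.3 and 3111 CPM in the other fibroblast-like cells of that library. Thus 7 of the 9 genes were called lower and none higher, against 7.42% lower and 9.46% higher of 9639 genes, and C4b was not, at 225 CPM against 327 CPM. With a single library, the subtype and library 2 cannot be told apart. Without library 2, 4 genes were called in any named subtype and with it 8 were. With a mitochondrial limit of 10% only C2 and C7 were called lower in the Tbx20-like subtype and C4b was called higher, and with complement genes among the variable genes only C3 and C7 were called lower.

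Subclusters that stayed unnamed also differed. Subcluster 2 (2621 cells in 6 libraries) was shallow, with a median of 1851 UMIs per cell, and had 411 CPM of C2 (324 to 503 over libraries) against 165 CPM, and 69.0 CPM of C4b (56.9 to 109) against 280 CPM. Both differences held in 6 of 6 libraries, and these 2 genes were called, against 1.19% of 9008 genes higher and 4.68% lower. C3 stood at 1340 CPM against 2204 CPM, lower in 6 of 6 libraries but short of the limit. Subcluster 2 scored best for the Penk/Cxcl14 list and stayed unnamed for its low depth. For C3 and C4b it thus went the other way from the named Penk/Cxcl14-like cells. In thinned cells, 46.6% had a C2 UMI and 8.14% a C4b UMI, against 27.3% and 22.9% of all fibroblast-like cells. Subcluster 4 (1962 cells, led by Spp1, Lamc3 and Tbx20) had 81.5 CPM of C2 against 194 CPM and 135 CPM of C7 against 265 CPM, each lower in 6 of 6 libraries. Only C2 passed the limit there, against 1.82% of 9065 genes lower, and C7 had a ratio of 0.509. The fibroblast-like class was not pure. Smaller unnamed subclusters were led by Tagln, Myh11 and Acta2 (337 cells), by Snhg11, Chgb and Vip (273 cells) and by Cldn5, Cdh5 and Vwf (144 cells).

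Cluster 13 was led by Saa3, Upk3b, Ces1d, C3, Cxcl10, Serpina3n and others. It scored best for fibroblast markers but stayed unnamed, because its leading genes held the mesothelial marker Upk3b and no fibroblast marker. It held fibroblast transcripts, with Dcn in 97.1% and Pdgfra in 73.7% of its 854 cells of library 5. In library 2, 34 of its 56 cells had the mesothelial genes Upk3b and Msln, which 13 and 18 of the 854 cells of library 5 had, so it mixed cell types and is described within library 5. There C3 stood at 6882 CPM (6818 to 6947) in cluster 13, against 2159 CPM (2140 to 2179) in fibroblast-like cells, C4b at 1106 CPM (1081 to 1133) against 250 CPM (243 to 256), and Cfb at 92.1 CPM (84.8 to 99.9) against 34.9 CPM (32.5 to 37.5). These 3 of the 9 genes were at least 2 times higher, against 5.53% of 9355 genes. C7 was the 1 gene at most 1/2 as high, at 41.6 CPM (36.7 to 46.9) against 187 CPM (181 to 193), against 3.91% of genes. C1s1 was 1.61 times and C1ra 1.47 times as high, Serping1 was 0.919 times and C2 0.617 times as high. Over the 3 libraries with at least 20 cells of cluster 13, C3 and C4b were called higher, against 4.60% of 9563 genes, and C7 lower, against 2.38%. The limit of 2 times applied to summed counts, which were mostly of library 5, and single libraries had only to lie on the same side. In libraries 1 and 2 C4b was 1.01 and 1.36 times as high as in fibroblast-like cells, C3 1.48 and 2.03 times, and C7 0.155 and 0.174 times. In thinned cells, 73.8% of cluster 13 and 21.6% of fibroblast-like cells of library 5 had a C4b UMI.

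**Figure D4:**
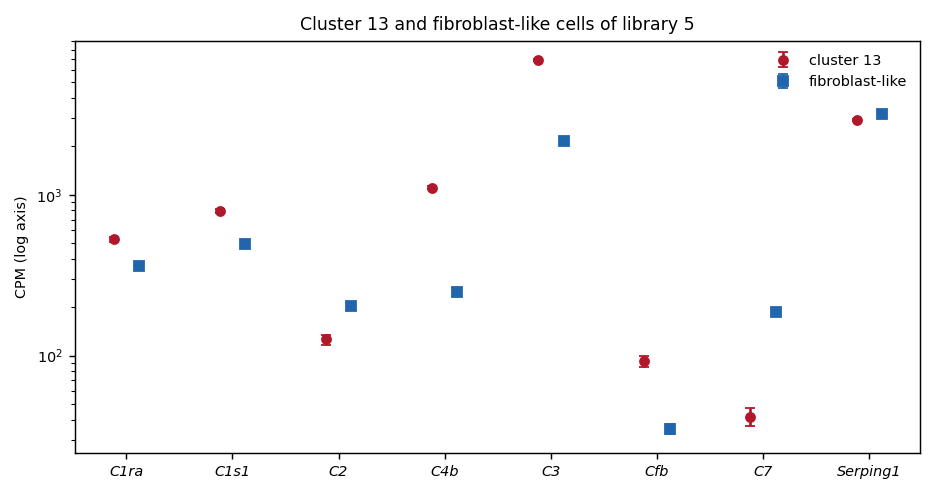
Level of the 8 genes (CPM, log axis) in cluster 13 and in fibroblast-like cells of library 5, with exact 95% Poisson intervals that are mostly narrower than the symbols. C3, C4b and Cfb stand higher in cluster 13 and C7 and C2 stand lower.

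Genes of the interferon response summed to 3652 CPM in cluster 13 and to 291 CPM in fibroblast-like cells. Saa3, an acute-phase gene, led the cluster from 58 of the 854 cells of library 5, while Cxcl10, an interferon-induced chemokine gene, had a UMI in 57.1% and Serpina3n in 79.7%. The cluster is 1 library in the main, and it and library 5 cannot be told apart. Without library 5, 3582 CPM of C3 and 358 CPM of C4b were left in its other cells, against 6299 and 974 CPM with it. C2 was at 329 CPM without library 5 and 162 CPM with it, against 178 CPM in all fibroblast-like cells, so its direction turned. C1ra and C1s1 were at 272 and 375 CPM without library 5, below the 342 and 472 CPM of all fibroblast-like cells. With it they were above, at 483 and 721 CPM. Cfb was at 19.9 CPM without it, below the 30.8 CPM of all fibroblast-like cells, and 79.3 CPM with it, so its direction turned.

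Per cell, several of the genes were seen together. After thinning to 2000 UMIs a fibroblast-like cell showed a mean of 3.58 of the 8 genes other than C3ar1, and 52.1% of cells showed 4 or more. The mean was 4.29 in cluster 13, 0.568 in smooth muscle-like cells and 0.528 in T cell-like cells. Only 1.22% of thinned fibroblast-like cells showed none of the 8.

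Within its highest class, none of the 9 genes reached a ratio of 2 between the highest and the lowest library, against 4.61% of 8828 genes in fibroblast-like cells and 16.8% of 8370 genes in macrophage-like cells, so a count of 0 is near the background. At a ratio of 1.5, 3 genes differed (C2, C4b and C7). The widest ratio was 1.71 for C7, with library 3 at 320 CPM and library 5 at 187 CPM, and the narrowest was 1.14 for Serping1. C7 reached 2 once cluster 13 was counted as fibroblast-like. Summed dissociation-response genes in fibroblast-like cells ran from 12976 to 14957 CPM over libraries and interferon genes from 233 to 350 CPM. With 3 samples of each genotype in unknown order among the libraries, these values say nothing of either genotype alone.

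Outside the highest class, levels varied more between libraries: C3 ran from 50.1 to 283 CPM in macrophage-like cells, 93.9 to 461 CPM in Schwann-like cells and 25.5 to 103 CPM in endothelial-like cells. In library 3 lymphatic endothelial-like cells had 518 CPM of C3, 182 CPM of C2 and 44.3 CPM of Cfb, against 76.8 to 99.9, 34.3 to 52.0 and 5.49 to 9.87 CPM in libraries 1, 2, 4 and 6, and library 5 lay between at 331, 76.9 and 16.0 CPM. C7 was at most 3.13 CPM in these cells of any library, and the C3 UMIs of library 3 came to 72.5 per 100 Dcn and Col1a2 UMIs, against 9.81 in fibroblast-like cells of that library. Library 3 held 157 such cells. In endothelial-like cells of library 3 C3 stood at 28.8 CPM and C2 at 4.02 CPM, inside the range of the other libraries.

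**Figure D5:**
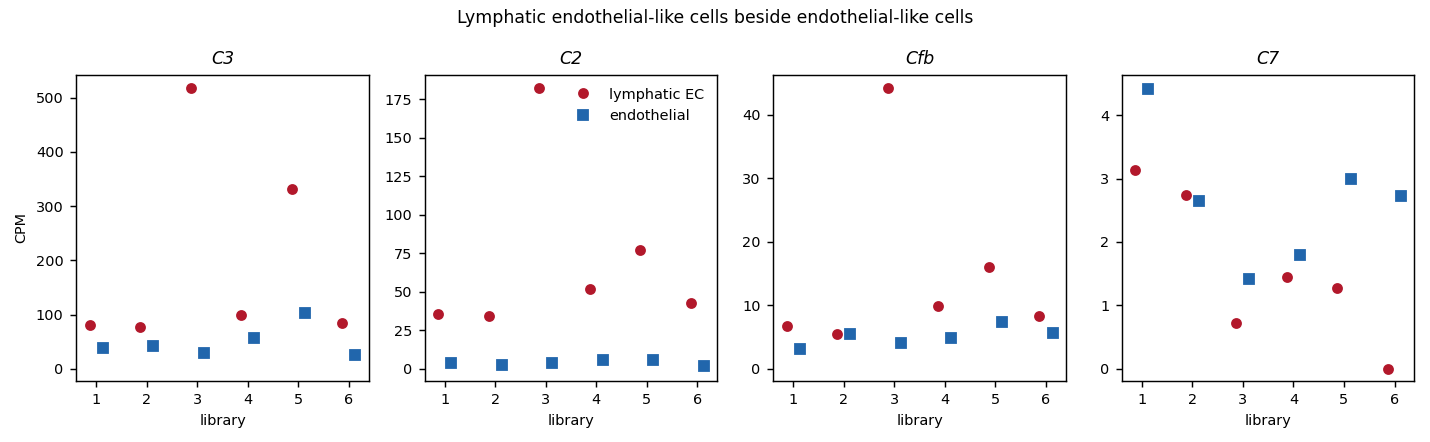
CPM of C3, C2, Cfb and C7 in lymphatic endothelial-like cells (circles) and endothelial-like cells (squares) of each library. Library 3 stands highest in lymphatic endothelial-like cells for C3, C2 and Cfb, at 518, 182 and 44.3 CPM, and C7 stays at or below 4.42 CPM throughout.

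The rest of the cascade was looked at through a list of 46 other complement genes, of which 16 reached 50 CPM in a class. The text draws on the 14 highest. Macrophage-like cells led 7 of these 14. They held the C1q chains, which bind antibody and start the classical arm, at 5353 CPM (C1qa), 4968 CPM (C1qb) and 3390 CPM (C1qc), with T cell-like cells next at 97.8, 105 and 71.0 CPM. They also led for the C5a receptor gene C5ar1 (694 CPM), properdin (Cfp, 411 CPM), ficolin A (Fcna, 244 CPM) and the CR3 chain Itgam (242 CPM), all placed there by the rule. C1q was thus led by macrophage-like cells and its proteases C1ra and C1s1 by fibroblast-like cells. Of all 46 listed genes, 9 were placed in macrophage-like cells and 1 in fibroblast-like cells (C1s2, at 0.372 CPM).

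Regulators were led by several classes. Clusterin (Clu), an inhibitor of the attack complex, led in endothelial-like cells at 1316 CPM, Cd59a, another such inhibitor, in Schwann-like cells at 492 CPM, and Cd55, which speeds the decay of convertases, in lymphatic endothelial-like cells at 157 CPM. Cr1l, a mouse regulator known as Crry, had 151 CPM in endothelial-like cells, the collectin Colec12 had 250 CPM in fibroblast-like cells, and Itgb2 had 170 CPM in T cell-like cells, with macrophage-like cells next at 160 CPM. Cd59a and Cd55 have copies, Cd59b and Cd55b, and reads between them may be split. Of the other terminal components, C6 reached 23.9 CPM in macrophage-like cells and Hc, which encodes C5, 19.3 CPM in epithelial-like cells, C9 had 9 UMIs in all kept cells and C8a and C8b had none. Of the soluble inhibitors of the convertase, Cfi had 27 UMIs and C4bp 7.

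The genes with the most similar pattern over 20 clusters (Pearson r of log2(CPM + 5), a description over clusters of the same libraries) were mostly genes of fibroblasts for the fibroblast-like members. For C7 they were Plcxd3 (0.970), Ccbe1 (0.960) and Fbln1 (0.958), for C3 Has1 (0.920), Clec3b (0.910) and Inmt (0.907), for Serping1 Ctsk (0.949), Glt8d2 (0.930) and Bicc1 (0.928), for C1s1 Col6a1 (0.956), Col6a2 (0.953) and Il17d (0.937), and for C1ra C1qtnf7 (0.943), Ndn (0.913) and Igfbp4 (0.911). For C3ar1 they were Msr1 (0.974), Pf4 (0.973) and F13a1 (0.971), genes of macrophages. Likeness was lower for C2 (Igsf10 0.910, Serpina3n 0.883, Hspa5 0.881), C4b (Sqstm1 0.866, G530011O06Rik 0.843, Nkain4 0.821) and Cfb (Tnfsf13b 0.854 and Il6 0.791). Among the members themselves r was 0.92 between Serping1 and C1ra, 0.89 between C1s1 and C1ra, and -0.30 between C3ar1 and Serping1.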

How the data were processed

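Single-cell RNA of mouse aortic tissue was measured in 3 Best3SMKO and 3 Best3FL/FL samples. The authors deposited 1 pooled matrix of UMI counts, not normalized. Its header names cellranger 6.1.2, and the submitters' processing notes name Cell Ranger 3.1.0, Seurat 3.1.1, bcl2fastq 5.01 and GRCm38. Barcode suffixes matched no sample label, so the 6 libraries have no genotype, the planned knockout comparison was not made and no test was run.

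Limits were 500 genes per barcode and 20% mitochondrial UMIs, with Scrublet doublets (3.02 to 11.3% per library) removed. With scanpy 1.11.5 and leidenalg 0.10.2, 2000 variable genes without complement genes, 30 components and 20 neighbours gave 20 clusters at resolution 0.5, named from marker lists. UMIs were summed over cells and scaled to CPM. The rules of size were run over all genes for background shares and tested on simulated data. Named genes were all 9 members, up to 14 of 46 other complement genes reaching 50 CPM, and the 3 genes most correlated with each member over clusters. Members and lists were chosen with earlier results of these data known, and rules for leaving clusters unnamed were set after the clusters were seen. Alternatives changed filters, doublets, resolution, factors, weighting, thinning and libraries. Counting cluster 13 as fibroblast-like was added after seeing the data. Some genes that these rules name are not reported here.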

Additional observations from a re-analysis of the deposited data

Results flagged for a closer look

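Of 46 pairs of a gene and a cell class at 10 CPM or more, 8 had a library whose gap to the nearest of the others, over the whole range of 6 libraries, passed 0.625. That limit is passed by about 1 in 20 groups of 6 independent, normally distributed values. The pairs share the same 6 libraries and some rest on few UMIs. The count of 8 was therefore not tested against chance. In lymphatic endothelial-like cells library 3 stood apart for C2, at 182 CPM with the next library at 76.9 CPM, and for Cfb, at 44.3 CPM with the next at 16.0 CPM.

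Library 5 stood apart in 4 pairs. In macrophage-like cells C3 was at 283 CPM (next 113 CPM) and C1s1 at 38.8 CPM, with the other libraries' median at 13.6 CPM. In endothelial-like cells C1ra was at 57.9 CPM (next 44.0 CPM) and Serping1 at 165 CPM (next 109 CPM). Per 100 Dcn and Col1a2 UMIs these 4 values were 30.3, 4.16, 6.88 and 19.6, against 8.42, 1.92, 1.40 and 12.4 in fibroblast-like cells of that library.

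The other pairs rest on few counts. C3 in Schwann-like cells of library 3 was at 461 CPM (next 194 CPM) from 50 UMIs in 31 cells, with 7.41 per 100 Dcn and Col1a2 UMIs, against 9.81 in fibroblast-like cells. C7 in T cell-like cells of library 2 was at 44.7 CPM (next 18.1 CPM) from 9 UMIs in 44 cells.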

How the results depend on the processing

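No paired analysis was possible because the barcodes carry no sample label or replicate number. Of the 9 genes, 6 were placed in a class, and 6 in each run that left out 1 library. With doublets kept 3 were placed (C7, Serping1 and C3ar1), when pericyte-like cells formed a class of their own with 507 CPM of C1s1, against 470 CPM in fibroblast-like cells, and epithelial-like cells had 1450 CPM of C3, against 2161 CPM in fibroblast-like cells. At resolution 1.0, 4 were placed. The count of genes called in a named fibroblast subtype was 8, and it was 4 with a mitochondrial limit of 10% and 3 with complement genes among the variable genes, where no Penk/Cxcl14-like subtype was named. Leaving out 1 library gave 4 to 8, the lowest without library 2, which held the whole Tbx20-like subtype. In Penk/Cxcl14-like cells C4b was no longer called without library 3, 4, 5 or 6, with a mitochondrial limit of 10% or at fibroblast resolution 0.8. C2 was no longer called higher there without library 2, at resolution 1.0, or at fibroblast resolution 0.3 or 0.8. In Tbx20-like cells C4b was called higher with the mitochondrial limit of 10%. A ratio of 2 between libraries was reached by 0 genes, and by 0 in each run that left out 1 library, 3 (C2, C4b and C7) at a ratio of 1.5, and 1 (C7) with cluster 13 counted as fibroblast-like. The causes were not tested.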

Other observations

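Cfd, which encodes factor D, the protease that cuts factor B, is known as an adipocyte gene and led the smaller smooth muscle-like cluster of 1934 cells. Its level there was 1985 CPM in library 1, 199 CPM in library 4 and 490 CPM in library 5, from 4458, 896 and 1419 UMIs. In libraries 2, 3 and 6 it had 0 UMIs in 388, 74 and 173 cells, with exact upper Poisson limits of 1.04, 5.30 and 2.48 CPM. In the larger smooth muscle-like cluster Cfd had 8.39 CPM in library 1 and at most 0.900 CPM in any other library.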
